A study of Mus musculus with 10 samples.

Results

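The genes described here encode proteoglycans, elastic fibre proteins and glycoproteins of the extracellular matrix, measured in mouse embryonic fibroblasts. The set is a list of 40 gene symbols, among the 22552 genes of the deposited tables, and all 40 were found. Of these, 29 averaged 1 FPKM or more across all 8 RNA-seq libraries and were tested, among 10901 genes tested in all. FPKM are fragment counts corrected for transcript length and library depth, and were summed here over the listed transcripts of a gene. The other 11 were not tested, and each stayed at or below 0.35 FPKM in every library.

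The fibroblasts carry no other labelled genetic change. The RNA-seq groups were mock-transfected cells at 32 °C, siCirbp-transfected cells at 37 °C, siRbm3-transfected cells at 37 °C and mock-transfected cells at 37 °C, with 2 libraries each. Cirbp and Rbm3 bind RNA and are known to rise in mildly cooled cells. Another pair of libraries, 1 for each protein, came from cells with a stable FLAG-tagged copy of Cirbp or of Rbm3, grown at 37 °C with 100 µM 4-thiouridine for 16 h. They were read by PAR-CLIP, which maps the RNA sites crosslinked to a protein. The siRNA groups were set against mock-transfected cells, so transfection with any siRNA and loss of the named protein cannot be told apart. The labels do not say how long cells were kept at 32 °C, whether replicates came from separate cultures, or whether both libraries of an siRNA group received the same siRNA. A p-value here thus reflects library-to-library spread alone, which may be technical.

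Fibroblasts build much of the matrix of connective tissue. Small leucine-rich proteoglycans such as decorin and biglycan sit on collagen fibrils and regulate their growth, fibrillin microfibrils carry elastin and hold latent TGF-beta through the LTBPs, and laminins with perlecan (Hspg2) form basement membranes. Fibronectin and the matricellular proteins (osteopontin, thrombospondins, tenascin, SPARC, periostin) connect cells to these networks.

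Each library held 24.8 to 27.8 M mapped fragments, computed as coverage over FPKM. Over all genes tested, replicates differed by a median of 0.11 on the log2 scale at 32 °C, 0.26 after siCirbp, 0.31 after siRbm3 and 0.09 in mock 37 °C cells. Cirbp had 10.8 and 6.07 FPKM in siCirbp libraries, 13.8 and 23.8 FPKM in the libraries labelled siRbm3, and 15.9 and 17.1 FPKM in mock 37 °C libraries. Rbm3 had 3.05 and 1.16 FPKM in the libraries labelled siRbm3, against 1.85 and 2.21 FPKM in mock 37 °C libraries, so the library labelled siRbm3 replicate 1 stood above both controls and goes against its label. The siCirbp libraries had 5.54 and 7.55 FPKM of Rbm3, above the mock libraries of both temperatures. At 32 °C, Cirbp had 34.5 and 37.2 FPKM and Rbm3 had 3.64 and 3.20 FPKM, all above the mock 37 °C libraries. Fibroblast markers were present at a mean of at least 1 FPKM in 8 of 9 cases, and Thy1 was listed at 0 in all libraries. Endothelial markers had 0 of 5 at that level and summed to at most 0.383 FPKM per library.

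The members differed widely in level. Spp1, which encodes osteopontin, ranked 1 of all 22552 genes by mean FPKM, with 14616 and 17392 FPKM at 32 °C, 11443 and 6232 FPKM after siCirbp, 7421 and 5127 FPKM after siRbm3, and 7855 and 7967 FPKM in mock 37 °C libraries. The 40 members together held 5.67% and 5.52% of all summed FPKM at 32 °C, 4.33% and 2.74% after siCirbp, 3.47% and 2.89% after siRbm3, and 3.90% and 3.78% in mock 37 °C libraries. Without Spp1 these shares were 1.66% and 1.49%, 1.36% and 1.12%, 1.47% and 1.65%, and 1.64% and 1.60% in the same order of groups. With Spp1 left out, the mock 32 °C libraries thus no longer stood apart from the mock 37 °C ones. At the other end, Eln (elastin) was listed at 0 in 7 of 8 libraries, and Nid1, Nid2, Lama2, Lama4, Lum, Mfap2, Mfap4, Fbln5, Efemp1 and Ltbp2 stayed under 42 reads in each.

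**Figure D1:**
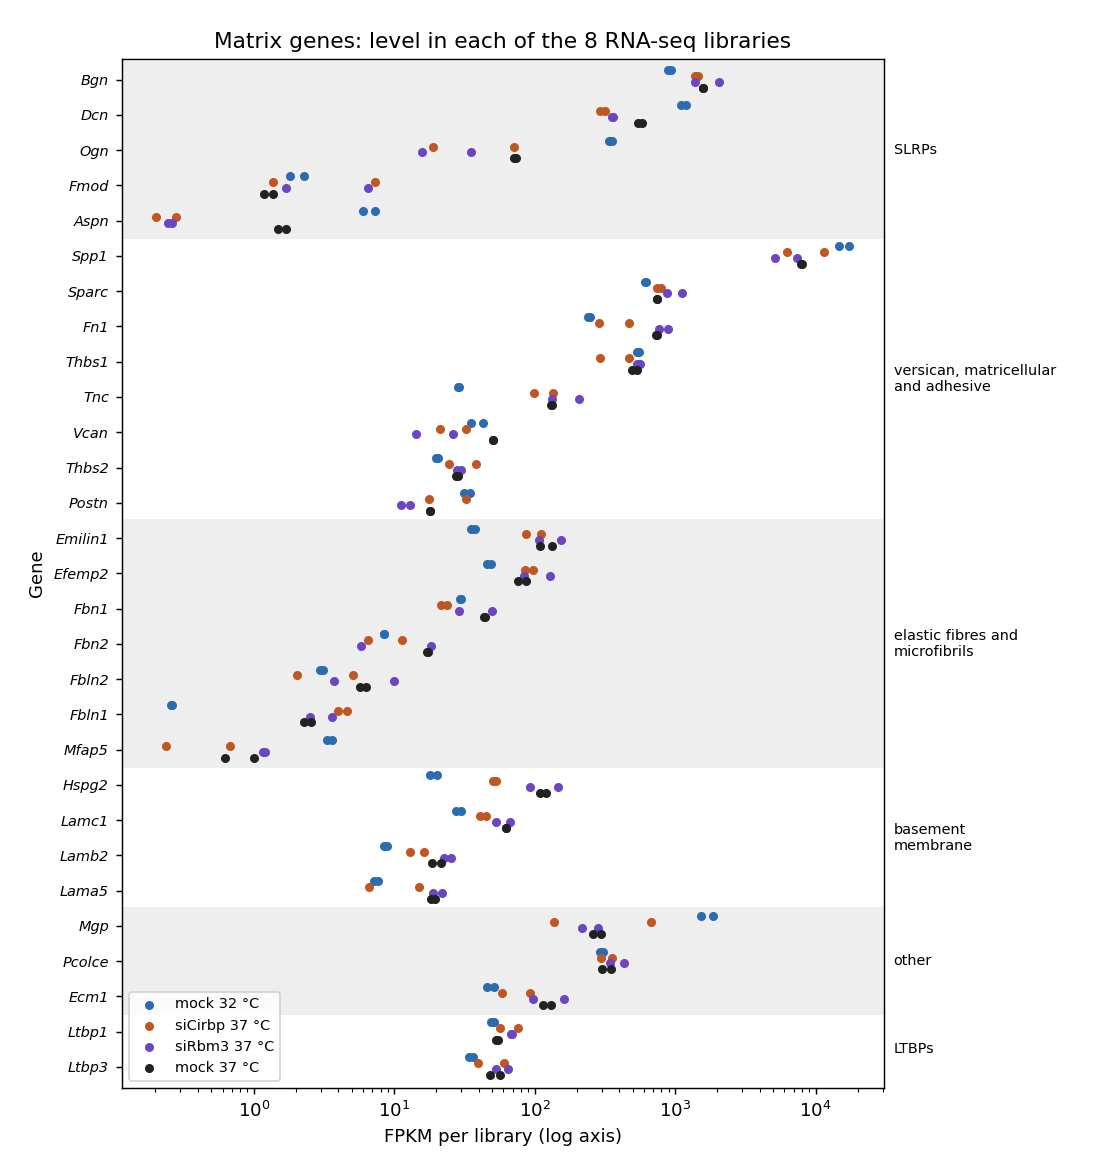
FPKM of the 29 tested members in each of the 8 RNA-seq libraries (log axis), 1 point per library, grouped by role. The levels span Mfap5 and Aspn, under 10 FPKM in every library, up to Spp1, which reached 17392 FPKM.

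Between 32 °C and 37 °C, 18 of the 29 tested members passed limma's adjusted p of 0.05 (62.1%), against 32.8% of all genes tested. Of these, 7 rose at 32 °C (24.1%, against 13.0% of all genes) and 11 fell (37.9%, against 19.8%). The members' median log2 fold change was -0.55, against -0.02 over all genes tested. The groups' libraries did not overlap in 28 of 29 members, against 84.9% of all genes. All 4 tested basement membrane genes fell, while 3 of 5 small leucine-rich proteoglycans rose. In bulk RNA, fewer cells of a type and less RNA per cell cannot be told apart.

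Among the small leucine-rich proteoglycans, Ogn, Aspn and Dcn rose at 32 °C and Bgn fell. Ogn (osteoglycin, a keratan sulphate proteoglycan of connective tissue) had 355 and 340 FPKM in mock 32 °C libraries, against 73.5 and 71.1 FPKM in mock 37 °C libraries. The groups lay far apart, with a log2 fold change of 2.25 ± 0.59 (SE) and an adjusted p of 0.0274. Aspn (asporin, which binds collagen and TGF-beta) had 7.34 and 6.04 FPKM at 32 °C, against 1.49 and 1.71 FPKM at 37 °C. Its log2 fold change on the log2(FPKM + 1) scale, which understates the change of low genes, was 1.56 ± 0.16, with an adjusted p of 0.00217. Dcn (decorin) had 1096 and 1188 FPKM at 32 °C, against 586 and 542 FPKM at 37 °C, a log2 fold change of 1.02 ± 0.15 with an adjusted p of 0.00463. Bgn, the closest relative of decorin, had 942 and 893 FPKM at 32 °C, against 1579 and 1582 FPKM at 37 °C. It fell by 0.78 on the log2 scale (SE 0.21, adjusted p 0.0282), so decorin was above biglycan at 32 °C and below it at 37 °C in FPKM. Fmod (fibromodulin) had 1.81 and 2.27 FPKM at 32 °C, against 1.18 and 1.38 FPKM at 37 °C, and did not pass the test (adjusted p 0.646). Lum (lumican), the sixth gene of the family on the list, held at most 0.181 FPKM and was not tested.

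Aspn and Ogn are neighbours in a run of 4 related genes on mouse chromosome 13 (mm9), from Ecm2 at 49600179 through Aspn (49639812 to 49662931) and Omd to the end of Ogn at 49719869. Omd (osteomodulin) had 13.1 and 18.6 FPKM at 32 °C, against 6.12 and 6.12 FPKM at 37 °C, and did not pass the test (log2 fold change 1.22, adjusted p 0.107). Ecm2 had 0.820 and 0.966 FPKM at 32 °C, against 0.241 and 0.475 FPKM at 37 °C, and was below the level tested. All 4 genes had both 32 °C libraries above both 37 °C libraries, as 41.0% of all genes tested had. Beside Dcn on chromosome 10, Lum had 0.0953 and 0.181 FPKM at 32 °C, against 0.0380 and 0.0392 FPKM at 37 °C, and Kera and Epyc were at or near 0 in every library, all below the level tested. Without a filter on FPKM, Lum passed with a log2 fold change of 0.13 (adjusted p 0.0464). Since Aspn and Ogn share a locus and rose together, the 250 bases before the start of each are shown from RefSeq (GRCm38.p6, both on the plus strand, chromosome 13). Capitals mark matches, on either strand, to 4 motifs, namely the TATA motif (TATAAA), the GC box (GGGCGG), the core of E-box and hypoxia elements (ACGTG) and the CCAAT box (CCAAT).
Aspn, chr13:49544193-49544442: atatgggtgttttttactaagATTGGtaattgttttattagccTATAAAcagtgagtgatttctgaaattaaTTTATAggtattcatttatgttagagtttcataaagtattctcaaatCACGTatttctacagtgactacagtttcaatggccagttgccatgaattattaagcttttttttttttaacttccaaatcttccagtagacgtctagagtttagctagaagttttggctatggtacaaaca
Ogn, chr13:49607765-49608014: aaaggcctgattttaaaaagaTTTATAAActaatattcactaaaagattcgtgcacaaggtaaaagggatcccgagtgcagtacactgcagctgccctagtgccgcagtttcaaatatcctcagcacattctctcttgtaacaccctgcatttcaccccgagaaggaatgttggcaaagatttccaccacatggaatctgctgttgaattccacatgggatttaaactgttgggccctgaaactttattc
Each window holds 2 matches to TATAAA, which is found in 12.4% of 32851 RefSeq promoter windows of this length, and in the Ogn window these overlap each other on opposite strands. The Aspn window also holds 1 match to ACGTG (16.6% of windows) and 1 to CCAAT (33.8%). Neither holds GGGCGG, found in 32.7% of windows. G and C make up 30% of the Aspn window and 42% of the Ogn window.

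Versican and the matricellular and adhesive glycoproteins split, with 2 of 8 risen at 32 °C, 2 fallen and 4 that did not pass. The Spp1 mean was 2.02 times that at 37 °C, with an SE of 0.33 on the log2 scale, close to the threshold (adjusted p 0.0492), and it passed in 8 of 17 alternative fits. With quantile normalization the Spp1 difference is 0. This scaling sets equal ranks to equal values across libraries, and Spp1 ranks first by mean FPKM. Postn (periostin, an integrin ligand of collagen-rich tissue) had 34.7 and 31.3 FPKM at 32 °C, against 18.0 and 17.9 FPKM at 37 °C (log2 fold change 0.84 ± 0.26, adjusted p 0.0432). Postn passed in 10 of 17 alternative fits, and not without a filter on FPKM (adjusted p 0.0805), with the highest transcript alone (0.0645), with the replicate number as a block (0.0662) or without any 1 of the 4 mock libraries (0.157 to 0.182). Tnc (tenascin-C, an anti-adhesive hexameric glycoprotein) had 29.1 and 28.5 FPKM at 32 °C, against 131 and 134 FPKM at 37 °C, a log2 fold change of -2.16 ± 0.24 (adjusted p 0.00237). Fn1 (fibronectin) had 247 and 241 FPKM at 32 °C, against 736 and 741 FPKM at 37 °C, a log2 fold change of -1.59 ± 0.24 (adjusted p 0.00484). Both falls exceeded the difference between replicates many times over. Thbs1 (thrombospondin-1, an activator of latent TGF-beta) had 538 and 552 FPKM at 32 °C, against 495 and 531 FPKM at 37 °C. Sparc (which binds collagen) had 609 and 619 FPKM at 32 °C, against 743 and 748 FPKM at 37 °C. Vcan (versican, the large hyaluronan-binding proteoglycan) had 43.0 and 35.1 FPKM at 32 °C, against 50.9 and 50.2 FPKM at 37 °C. Thbs2 had 19.8 and 20.5 FPKM at 32 °C, against 27.7 and 28.5 FPKM at 37 °C. None of these 4 passed the test in the comparison of temperatures, with adjusted p of 0.124 to 0.791.

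Of the elastic fibre and microfibril genes, 7 of 12 were tested, and Mfap5 rose while Emilin1, Fbln1 and Efemp2 fell. Fbln1 (fibulin-1) had 0.260 and 0.263 FPKM at 32 °C, against 2.30 and 2.54 FPKM at 37 °C, so its mean was 9.26 times higher at 37 °C. Its log2 fold change on the log2(FPKM + 1) scale was -1.44 ± 0.18 (adjusted p 0.00291). Emilin1 (a glycoprotein at the elastin and microfibril interface) had 37.4 and 35.4 FPKM at 32 °C, against 110 and 132 FPKM at 37 °C (log2 fold change -1.70 ± 0.22, adjusted p 0.00295). Efemp2 (fibulin-4, needed for elastic fibre assembly) had 46.1 and 48.6 FPKM at 32 °C, against 75.6 and 86.4 FPKM at 37 °C. It fell by 0.76 on the log2 scale (SE 0.22, adjusted p 0.0323). Mfap5, a microfibril-associated glycoprotein, moved the other way, with 3.32 and 3.63 FPKM at 32 °C, against 0.620 and 1.00 FPKM at 37 °C (log2 fold change 1.31 ± 0.20, adjusted p 0.00519). The fibrillins, which form the microfibril core, did not pass. Fbn1 had 30.1 and 29.6 FPKM at 32 °C, against 44.4 and 43.9 FPKM at 37 °C (adjusted p 0.110). Fbn2 had 8.44 and 8.42 FPKM at 32 °C, against 17.2 and 17.3 FPKM at 37 °C (adjusted p 0.140), and Fbln2 had 3.10 and 2.95 FPKM, against 5.73 and 6.26 FPKM (adjusted p 0.191). All 3 had their 32 °C libraries below their 37 °C libraries, but groups did not overlap, in either direction, in 84.9% of all genes tested. The test draws its spread from all 4 groups, and these genes varied between the siRNA libraries. Eln, Fbln5, Efemp1, Mfap2 and Mfap4 were not tested.

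Of the latent TGF-beta binding proteins, which tether the latent growth factor to the matrix, neither tested gene passed. Ltbp1 had 51.5 and 49.1 FPKM at 32 °C, against 55.0 and 53.3 FPKM at 37 °C. Ltbp3 had 36.4 and 34.3 FPKM at 32 °C, against 48.3 and 56.7 FPKM at 37 °C, with an adjusted p of 0.0910. Ltbp2 held at most 0.255 FPKM.

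All 4 tested basement membrane genes fell at 32 °C. Hspg2, which encodes perlecan, the large heparan sulphate proteoglycan of basement membranes, had 20.2 and 17.9 FPKM at 32 °C, against 109 and 121 FPKM at 37 °C. Its mean was 6.03 times higher at 37 °C, and its log2 fold change of -2.53 ± 0.22 (adjusted p 0.00148) was the largest fall among the members on the log2(FPKM + 1) scale. By the ratio of means, or with a pseudocount of 0.1, the fall of Fbln1 was larger (log2 fold change -2.80, against -2.59 for Hspg2). The laminin chains are subunits of 1 trimer, and the alpha 5, beta 2 and gamma 1 chains on the list all fell. Lamc1 had 30.1 and 27.6 FPKM at 32 °C, against 62.4 and 62.0 FPKM at 37 °C. Lamb2 had 8.83 and 8.48 FPKM at 32 °C, against 18.5 and 21.5 FPKM at 37 °C. Lama5 had 7.62 and 7.20 FPKM at 32 °C, against 18.1 and 19.6 FPKM at 37 °C. Their log2 fold changes were -1.08 ± 0.16, -1.12 ± 0.17 and -1.24 ± 0.32, with adjusted p of 0.00438, 0.00481 and 0.0233. The fall of these chains was thus of similar size, about a factor of 2.16 to 2.55 between the means. Lama2 and Lama4, the alpha chains of muscle and vessel laminins, and both nidogens were not tested, at 0.094 FPKM or less. The window before the Hspg2 start is shown because Hspg2 passed in 2 comparisons in the main fit, here and after siCirbp. It comes from RefSeq (GRCm38.p6, chromosome 4, plus strand), while the transcript itself spans 137024718 to 137126545 on chromosome 4 of mm9.
Hspg2, chr4:137468553-137468802: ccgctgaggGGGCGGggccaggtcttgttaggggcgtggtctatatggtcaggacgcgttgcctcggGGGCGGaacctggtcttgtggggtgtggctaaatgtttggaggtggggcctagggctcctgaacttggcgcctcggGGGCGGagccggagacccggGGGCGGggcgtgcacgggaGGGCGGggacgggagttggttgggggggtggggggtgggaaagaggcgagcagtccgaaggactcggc
With the same motifs in capitals, it holds 5 matches to GGGCGG and none to the other 3, and G and C make up 70% of it.

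The remaining 3 genes went 3 ways. Mgp, which encodes matrix Gla protein, an inhibitor of calcification, had 1524 and 1860 FPKM at 32 °C, against 259 and 298 FPKM at 37 °C. The groups did not overlap, as in 84.9% of all genes tested. Mgp had the largest rise among the members on this scale, a log2 fold change of 2.60 ± 0.63 (adjusted p 0.0212). Ecm1 (extracellular matrix protein 1) had 51.7 and 45.6 FPKM at 32 °C, against 115 and 131 FPKM at 37 °C, and fell by 1.32 on the log2 scale (SE 0.29, adjusted p 0.0147). Pcolce, an enhancer of procollagen C-proteinase, had 290 and 305 FPKM at 32 °C, against 301 and 350 FPKM at 37 °C, and did not pass (adjusted p 0.632).

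**Figure D2:**
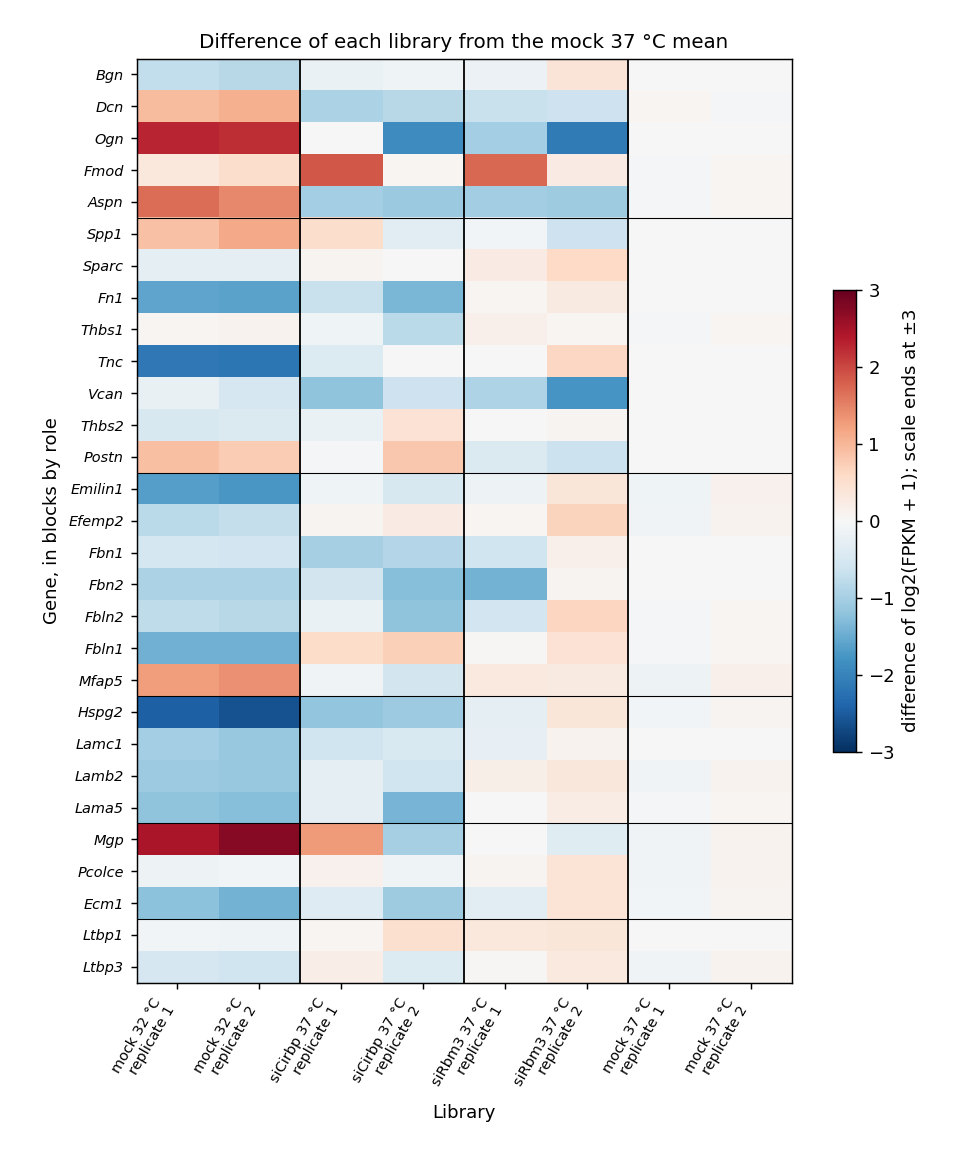
Difference of each library from the mock 37 °C mean on the log2(FPKM + 1) scale, for the 29 tested members (rows, in blocks by role) in the 8 libraries (columns). The 2 mock 32 °C columns look alike, while Ogn, Fmod and Mgp differ between the 2 siCirbp columns, and Fmod, Ogn and Fbn2 between the 2 siRbm3 columns.

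The members that rose at 32 °C had shorter transcripts than most members that fell. Their longest listed transcripts ran from 599 to 3214 nt with a median of 1886 nt, while the members that fell ran from 1797 to 14177 nt with a median of 5624 nt. Members that did not pass had a median of 5802 nt. Over all genes the medians were 1898.5 nt for genes that rose and 3778 nt for genes that fell. Spearman's rho of fold change on length, as a description across genes of the same libraries, was -0.58 over the 29 members and -0.34 over all 10901 genes. Against the same mock 37 °C libraries, rho over all genes was also -0.27 after siCirbp and -0.33 after siRbm3. Over the members it was -0.43 and -0.12. Between siCirbp and siRbm3, rho was -0.01 over all genes and -0.37 over the members. The source of the trend was not tested. With the length trend removed from each library, 16 members passed between temperatures, against 30.7% of all genes. The members' median log2 fold change was then -0.26, against -0.55 with the trend in place. Lama5 (log2 fold change -0.67, adjusted p 0.258) and Spp1 (0.86, adjusted p 0.0709) were lost. The laminins, Hspg2, Fn1 and Tnc are long transcripts that fell, whereas Vcan and Fbn1 are long ones that did not pass.

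**Figure D3:**
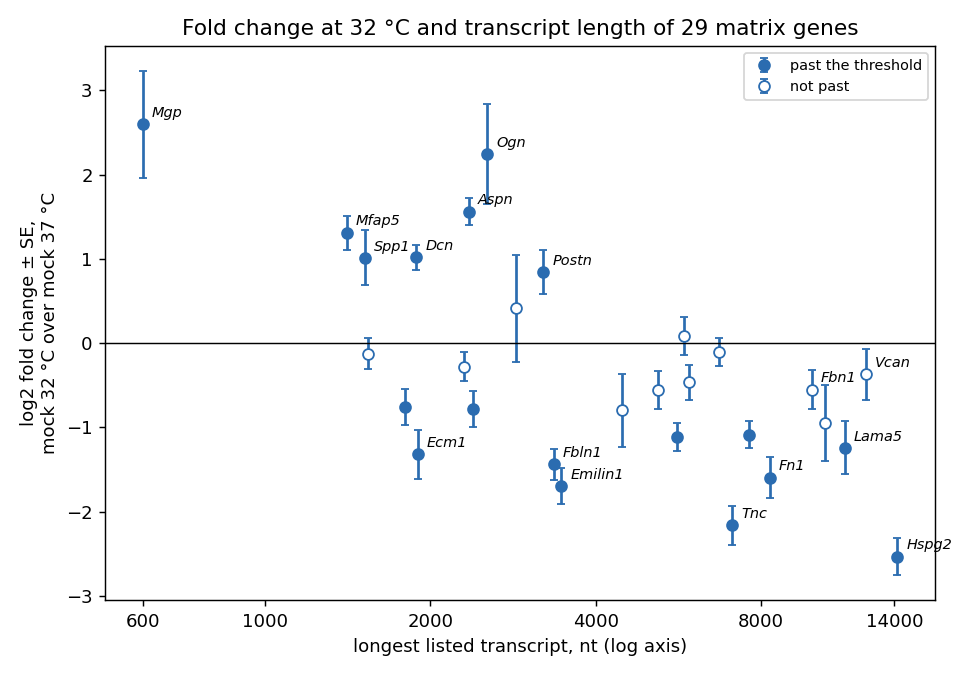
Log2 fold change at 32 °C over 37 °C with its SE (vertical axis) against the longest listed transcript in nt (log axis) for the 29 tested members, filled where the adjusted p was under 0.05. The risen members lie between 599 and 3214 nt, and Hspg2, at 14177 nt, lies lowest.

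The temperature result rests on 2 libraries a group. Leaving out 1 library left 10 members past the threshold without mock 32 °C replicate 1 (7.58% of all genes then passed), 5 without mock 32 °C replicate 2 (3.67%), 9 without mock 37 °C replicate 1 (6%) and 6 without mock 37 °C replicate 2 (3.67%). Aspn, Emilin1, Fbln1, Hspg2 and Tnc passed in every one of these fits. Of the fibroblast markers, Col1a1, Prrx1, Pdgfrb and Col1a2 fell at 32 °C in the main fit (limma adjusted p 0.00148, 0.00222, 0.00484 and 0.0428). S100a4 and Pdgfra rose (0.0135 and 0.0259), and Vim and Twist1 did not pass (0.202 and 0.170). Markers of other cells were read in the same libraries. Of 5 smooth muscle and myofibroblast markers, 2 reached 1 FPKM, and the list summed to 119 to 134 FPKM at 32 °C, against 30.9 to 34.7 FPKM at 37 °C, nearly all of it Acta2 (adjusted p 0.0113). Tagln, Cnn1 and Myh11 stayed at or under 0.683 FPKM in all libraries. Of 6 chondrocyte markers, 3 reached 1 FPKM, and the list summed to 5.30 to 5.55 FPKM at 32 °C, against 31.2 to 33.0 FPKM at 37 °C, most of it Sox9 (adjusted p 0.00230), while Matn1 and Col9a1 were at or near 0. Runx2, the single osteoblast marker detected at 1 FPKM, had 11.7 and 10.5 FPKM at 32 °C, against 28.7 and 28.0 FPKM at 37 °C (adjusted p 0.00218). Krt19 of the epithelial list had 0.122 and 0 FPKM at 32 °C, against 1.34 and 1.70 FPKM at 37 °C (adjusted p 0.0427). Cd68, alone among the macrophage markers, had 17.3 and 21.0 FPKM at 32 °C, against 10.1 and 9.88 FPKM at 37 °C, and did not pass (adjusted p 0.134), with Emr1 listed at 0 and Ptprc at or under 0.032 FPKM. Fabp4 of the adipocyte list had 26.7 and 26.7 FPKM at 32 °C, against 10.2 and 9.98 FPKM at 37 °C, and did not pass (adjusted p 0.117), with Adipoq at or near 0. The part of these markers in the members' changes was not tested.

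After siCirbp, 3 of 29 members passed, against 3.39% of all genes tested. All 3 fell (10.3%, where 0.624% of all genes fell) and none rose (2.77% of all genes). At an unadjusted p under 0.05 there were 11 members (37.9%, against 24.2% of all genes), and 16 of 29 had groups that did not overlap, against 60.4%. The members' median log2 fold change was -0.32, against 0.08 over all genes. Hspg2 had 50.3 and 53.2 FPKM in siCirbp libraries, against 109 and 121 FPKM in mock 37 °C libraries. It fell by 1.14 on the log2 scale (SE 0.22, adjusted p 0.0435). Hspg2, the longest member, did not pass with the length trend removed, where Aspn and Dcn did (1.04% of all genes passed). With the highest transcript alone Hspg2 did not pass either (2% of all genes passed). Hspg2 is listed with 1 transcript, so its own FPKM are the same in that fit. Aspn had 0.281 and 0.202 FPKM in siCirbp libraries, against 1.49 and 1.71 FPKM in mock 37 °C libraries, a log2 fold change of -1.07 ± 0.16 (adjusted p 0.0266). The FPKM of Aspn in siRNA libraries were given to another of its 2 listed transcripts than in mock libraries, as described with the transcripts. Dcn had 291 and 315 FPKM in siCirbp libraries, against 586 and 542 FPKM in mock 37 °C libraries, a log2 fold change of -0.89 ± 0.15 (adjusted p 0.0342). For these 3 the siCirbp replicates were close to each other and well below both controls. Side by side, and with the same mock 37 °C libraries on the other side of both differences, Dcn and Aspn were higher at 32 °C and lower after siCirbp, while Hspg2 was lower in both.

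These 3 calls depended on the fit. None of them passed when either mock 32 °C library, either mock 37 °C library or siCirbp replicate 2 was left out, although the mock 32 °C libraries enter this comparison only through the shared spread. Without siCirbp replicate 1, 4 members passed (6.26% of all genes did), Aspn, Fn1, Lama5 and Postn, with Postn higher. Without either siRbm3 library, 9 passed (14.8% of all genes did), namely the same 3 with Fbn1, Fbn2, Fn1, Lamc1 and Vcan, all lower, and Fbln1, higher. Fn1 had 468 and 286 FPKM in siCirbp libraries, against 736 and 741 FPKM in mock 37 °C libraries (adjusted p 0.0633). Fbn1 had 21.5 and 23.6 FPKM in siCirbp libraries, against 44.4 and 43.9 FPKM in mock 37 °C libraries (adjusted p 0.0706). Fbln1 had 3.97 and 4.63 FPKM in siCirbp libraries, against 2.30 and 2.54 FPKM in mock 37 °C libraries (adjusted p 0.0941). All 3 lay just outside the threshold, with groups that did not overlap, as in 60.4% of all genes tested. The laminin chains were also below the controls. Lamc1 had 41.1 and 45.0 FPKM in siCirbp libraries, against 62.4 and 62.0 FPKM in mock 37 °C libraries (adjusted p 0.103). Lamb2 had 16.4 and 12.9 FPKM, against 18.5 and 21.5 FPKM (adjusted p 0.174), and Lama5 had 15.1 and 6.57 FPKM, against 18.1 and 19.6 FPKM (adjusted p 0.160). Vcan had 21.2 and 32.3 FPKM in siCirbp libraries, against 50.9 and 50.2 FPKM in mock 37 °C libraries (adjusted p 0.122). The smooth muscle and myofibroblast list, nearly all Acta2, summed to 49.4 to 91.5 FPKM in siCirbp libraries and 56.1 to 114 FPKM in siRbm3 libraries. In mock 37 °C libraries it summed to 30.9 to 34.7 FPKM, with Tagln, Cnn1 and Myh11 again at or under 0.683 FPKM. Acta2 did not pass limma's test after siCirbp (adjusted p 0.176) or siRbm3 (0.350). Of the chondrocyte list, Col2a1 passed after siCirbp (adjusted p 0.0396), and Sox9 (0.863) and Acan (0.599) did not. Col2a1 had 4.83 and 7.21 FPKM in siCirbp libraries, against 1.55 and 2.18 FPKM in mock 37 °C libraries. The part of these markers in the members' values was not tested.

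Several members differed more between the 2 siCirbp libraries than between groups. Ogn had 71.5 and 18.8 FPKM in siCirbp libraries, against 73.5 and 71.1 FPKM in mock 37 °C libraries. Mgp had 677 and 138 FPKM in siCirbp libraries, on both sides of the mock 37 °C libraries at 259 and 298 FPKM. Fmod had 7.33 and 1.37 FPKM, against 1.18 and 1.38 FPKM in mock 37 °C libraries. Postn had 17.6 and 32.4 FPKM in siCirbp libraries, against 18.0 and 17.9 FPKM in mock 37 °C libraries, so 1 library matched the controls and 1 lay above them. Among the siRbm3 libraries, Fbn2 had 5.83 and 18.4 FPKM, against 17.2 and 17.3 FPKM in mock 37 °C libraries, and Fbln2 had 3.73 and 9.95 FPKM, against 5.73 and 6.26 FPKM. In all, 13 of 29 members differed by more than 1.5 times between the siCirbp replicates (of FPKM + 1), against 16.3% of all genes tested, and 10 of 29 between the siRbm3 replicates, against 22.9% of all genes. In the mock 32 °C and mock 37 °C pairs 0 of 29 did, against 1.25% and 1.02% of all genes.

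**Figure D4:**
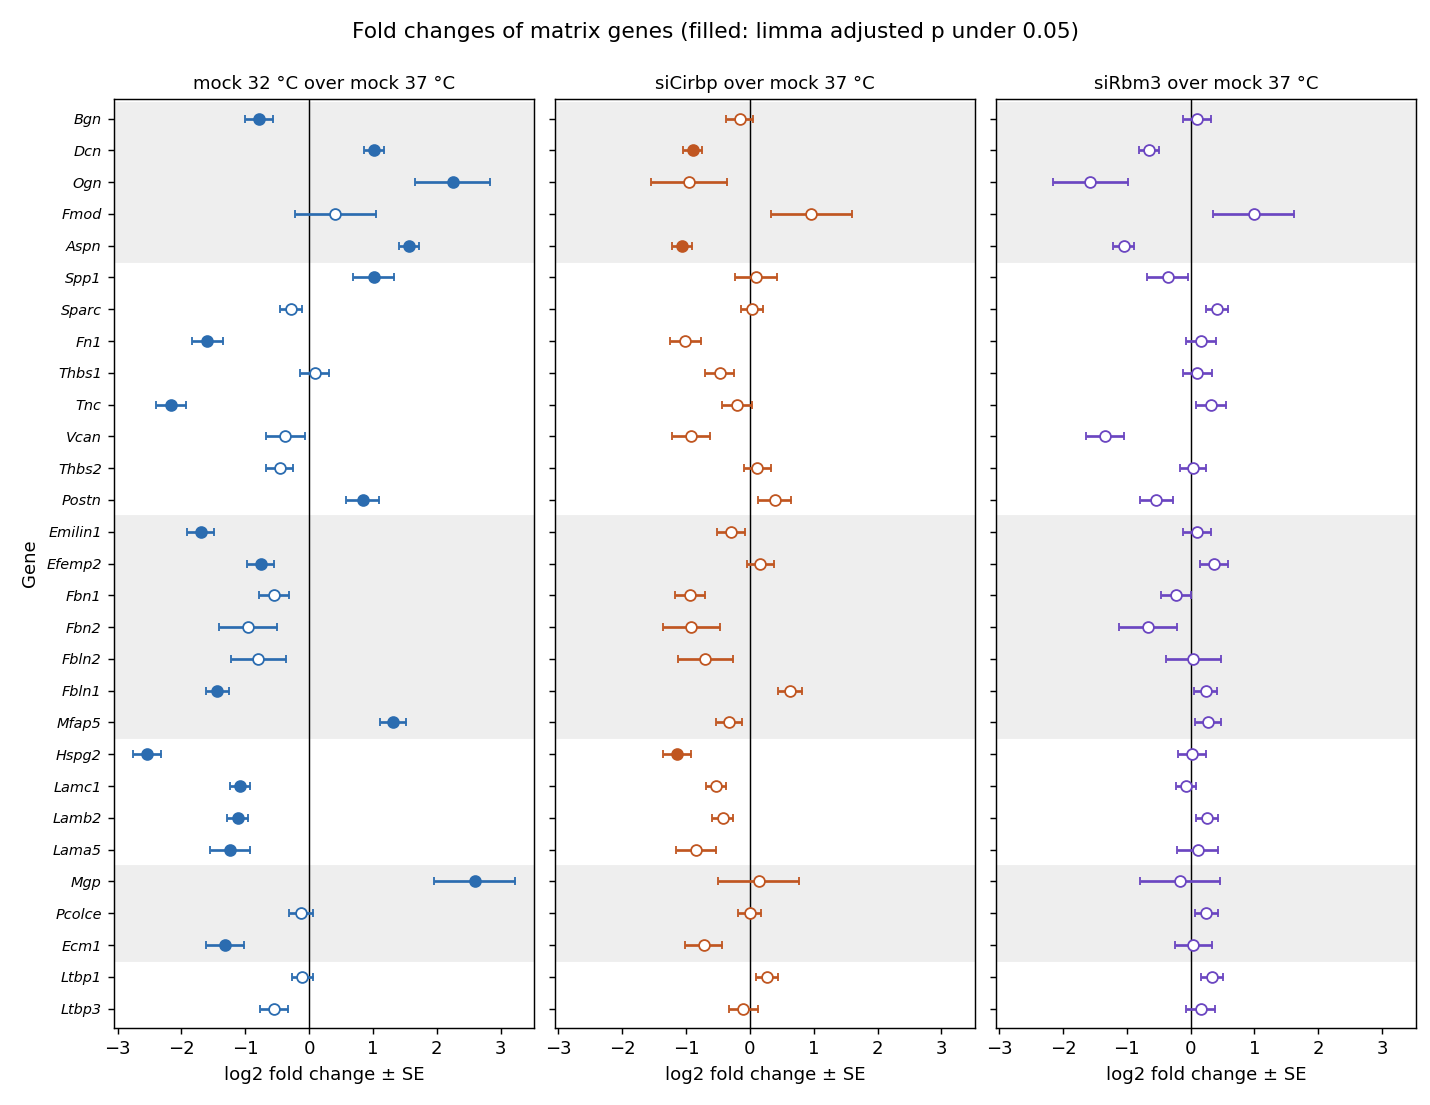
Log2 fold changes (horizontal axis) with their SE for the 29 tested members in 3 comparisons with mock 37 °C, filled where limma's adjusted p was under 0.05. At 32 °C 18 points are filled, after siCirbp 3 and after siRbm3 0; the 3 panels share the mock 37 °C libraries.

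After siRbm3, 0 of 29 members passed limma's adjusted p, as did 0 of 10901 genes (0.0%), and 5 members had an unadjusted p under 0.05 (17.2%, against 13.3%). These were Dcn, Ogn, Aspn, Vcan and Sparc. The median log2 fold change over all genes was 0.12, and over the members 0.10. Aspn had 0.262 and 0.245 FPKM in the libraries labelled siRbm3, against 1.49 and 1.71 FPKM in mock 37 °C libraries (log2 fold change -1.05 ± 0.16, adjusted p 0.185). Vcan had 26.2 and 14.2 FPKM in these libraries, against 50.9 and 50.2 FPKM in mock 37 °C libraries (-1.34 ± 0.30, adjusted p 0.350). Dcn had 353 and 363 FPKM, against 586 and 542 FPKM in mock 37 °C libraries, and Ogn had 35.1 and 15.9 FPKM, against 73.5 and 71.1 FPKM. Sparc was the 1 of the 5 on the other side, with 882 and 1120 FPKM in the libraries labelled siRbm3, against 743 and 748 FPKM in mock 37 °C libraries. Over all tested members, the groups did not overlap in 13 of 29 (44.8%), against 50.5% of all genes. Without the library labelled siRbm3 replicate 1, which also goes against its label, 1 siRbm3 library was left. The members' median log2 fold change was then 0.26, against 0.20 over all genes tested.

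Set directly against each other, siCirbp and siRbm3 libraries gave 0 of 29 members past the adjusted p, against 0.0367% of all genes, and 10 members at an unadjusted p under 0.05 (34.5%, against 15.2%). In 13 of 29 the groups did not overlap, against 36.3% of all genes. Hspg2 had 50.3 and 53.2 FPKM in siCirbp libraries, against 93.1 and 147 FPKM in the libraries labelled siRbm3 (log2 fold change -1.16 ± 0.22, adjusted p 0.221). Fn1 had 468 and 286 FPKM in siCirbp libraries, against 764 and 895 FPKM in the libraries labelled siRbm3 (-1.17 ± 0.24, adjusted p 0.221). Postn had 17.6 and 32.4 FPKM in siCirbp libraries, against 13.0 and 11.2 FPKM in the libraries labelled siRbm3 (0.93 ± 0.26, adjusted p 0.231). These groups did not overlap, but no difference between the siRNAs is shown for any member with all libraries in the fit. Aspn was close in both, with a log2 difference of -0.01 ± 0.16. Without the library labelled siRbm3 replicate 1, a single siRbm3 library was left. The members' median log2 fold change of siCirbp over siRbm3 was then -0.54, against -0.05 over all genes tested.

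In all, 9 members are listed with more than 1 transcript, and the deposited tables split their FPKM. The levels and shares required were met by 5 of them, Dcn, Efemp2, Ltbp1, Postn and Vcan. None of the 5 had a transcript whose share passed the test in any of the 4 comparisons; between temperatures 0.238% of 2936 transcripts did, and in the other comparisons 0.0%. At an unadjusted p of limma under 0.05 there was 1 member, Ltbp1, at 32 °C and after siCirbp, and 0 in the other comparisons. Ltbp1 came nearest. Its listed transcripts start at 75404869 and at 75578222 on chromosome 17 (mm9) and share their end at 75791109, and the upstream start gives the longer protein, known as the long form of LTBP-1. The transcript from the upstream start held 6.37% and 7.30% of Ltbp1 FPKM at 32 °C, 11.3% and 15.1% after siCirbp, 19.4% and 19.3% after siRbm3, and 20.2% and 22.3% in mock 37 °C libraries. The 32 °C and siCirbp libraries were thus below the mock 37 °C ones, and the siRbm3 libraries just under them. At 32 °C the log2 ratio of this transcript to the rest of the gene differed by -1.63 ± 0.35 (adjusted p 0.134), and after siCirbp by -0.79 ± 0.35 (adjusted p 0.465). The 250 bases before each start are shown from RefSeq (GRCm38.p6, chromosome 17, plus strand).
Upstream start, chr17:75005279-75005528: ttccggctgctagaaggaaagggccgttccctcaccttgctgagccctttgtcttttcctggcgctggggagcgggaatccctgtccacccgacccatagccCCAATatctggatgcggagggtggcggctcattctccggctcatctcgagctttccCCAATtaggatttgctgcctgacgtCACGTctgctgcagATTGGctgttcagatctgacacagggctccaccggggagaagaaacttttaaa
Downstream start, chr17:75178531-75178780: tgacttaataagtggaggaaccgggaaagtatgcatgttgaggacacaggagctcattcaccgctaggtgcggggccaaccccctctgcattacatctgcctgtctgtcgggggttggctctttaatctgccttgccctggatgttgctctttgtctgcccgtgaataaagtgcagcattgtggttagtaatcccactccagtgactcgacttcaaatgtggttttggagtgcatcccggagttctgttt
The upstream window holds 3 matches to CCAAT and 1 to ACGTG, with 56.8% G and C, and the downstream window holds none of the 4 motifs, with 50.8% G and C.

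For Spp1, a transcript of 1472 nt held 13.5% and 14.1% of the gene's FPKM at 32 °C, 4.18% and 5.18% after siCirbp, 5.85% and 7.16% after siRbm3, and 5.82% and 6.40% in mock 37 °C libraries. It stays under 10% of the gene on average and entered the test only when transcripts of at least 5% were admitted, where the log2 ratio at 32 °C differed by 1.30 ± 0.34 (adjusted p 0.192). Vcan was listed with 5 transcripts. The longest, of 12432 nt, held 49.4% and 44.6% at 32 °C, 30.0% and 52.0% after siCirbp, 62.9% and 27.9% after siRbm3, and 50.2% and 49.8% in mock 37 °C libraries, so the siRNA replicates stood on both sides of the controls. The 2 transcripts of Aspn, of 2351 and 2334 nt, share their listed start and end, and Aspn was too low for the test of shares. The one of 2334 nt held 99.9% of Aspn FPKM in all 4 siRNA libraries (0.202 to 0.281 FPKM) and at most 0.374% in the 4 mock libraries. The other had 7.34 and 6.02 FPKM at 32 °C and 1.49 and 1.71 FPKM in mock 37 °C libraries, and was near 0 in the siRNA libraries. The cause was not tested, nor was its bearing on the gene values of Aspn, which are sums over both transcripts. These values rest on few reads after the siRNAs, with 13.1 reads in the lowest library. Fn1 is listed with a single transcript, so its spliced forms cannot be seen here.

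**Figure D5:**
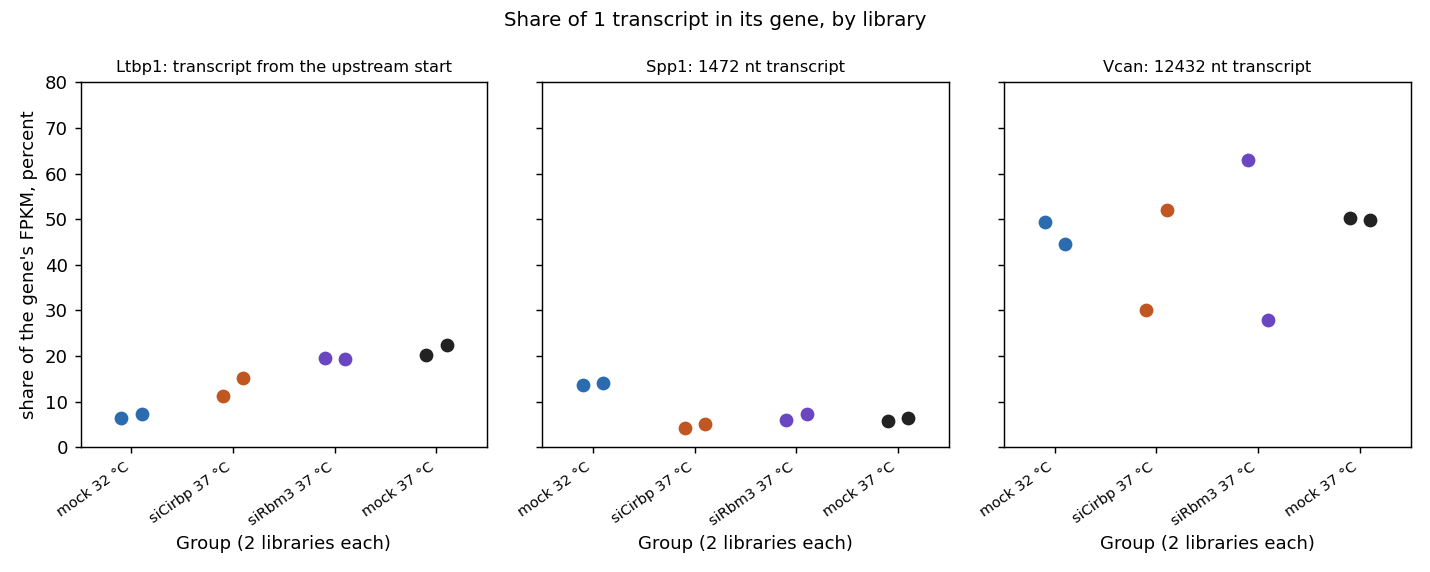
Share of 1 transcript in its gene's FPKM, in percent, 1 point per library, for Ltbp1, Spp1 and Vcan. The Ltbp1 upstream transcript lies at 6.37% and 7.30% in mock 32 °C libraries and at 20.2% and 22.3% in mock 37 °C libraries, while Vcan spreads within the siRNA groups.

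Of the 40 members, 0 held a Cirbp PAR-CLIP site, against 4.42% of all genes listed, and 1 (2.5%) held an Rbm3 site, against 4.91%. Of the 29 tested members, 0 held a Cirbp site, against 8.26% of all genes tested, and 1 (3.45%) an Rbm3 site, against 8.69%. The 1 member with a site was Vcan, with a site of 23 bases on the minus strand at chr13:89796935-89796957 (mm9), 2020 bases from the 3′ end of the locus. Its score of 233, the authors' own value, ranked 1405 of 2118 Rbm3 sites, whose median score was 318. Among genes with a mean of at least 100 FPKM, 13.5% held a Cirbp site and 12.8% an Rbm3 site, against 0 of 10 members for each protein. There is 1 PAR-CLIP library per protein and no replicate check, and a gene without a listed site is not shown to be unbound.

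Other genes of the pathway were read from 4 lists, against 13.0% of all genes that rose at 32 °C and 19.8% that fell. Of 37 tested matrix glycoproteins and proteoglycans outside the 40, 2 rose (5.41%) and 6 fell (16.2%), with a median log2 fold change of -0.33. Sdc2 (syndecan-2, a cell surface heparan sulphate proteoglycan) averaged 154 ± 5.39 FPKM at 32 °C and 64.9 ± 1.75 FPKM at 37 °C (SD, n = 2 each), and rose. Sdc3 averaged 0.667 ± 0.028 FPKM at 32 °C and 3.69 ± 0.319 FPKM at 37 °C, and Pxdn (peroxidasin, which crosslinks collagen IV) had 10.9 and 11.1 FPKM at 32 °C, against 31.2 and 34.5 FPKM at 37 °C, and both fell. After siCirbp 1 of the 37 passed (2.70%, against 3.39% of all genes), Cyr61 (a matricellular ligand of integrins), at 97.5 and 103 FPKM in siCirbp libraries, against 358 and 435 FPKM in mock 37 °C libraries. Of 39 genes of glycosaminoglycan synthesis and hyaluronan, 3 rose at 32 °C (7.69%) and 9 fell (23.1%), with a median of -0.40. Extl2 and Glce, enzymes of the heparan sulphate pathway, rose, and Chst12, a chondroitin sulphotransferase, fell, to 8.46 and 7.94 FPKM at 32 °C, against 20.8 and 25.2 FPKM at 37 °C. After siCirbp 1 passed (2.56%), Papss2 (which makes the sulphate donor), at 3.29 and 3.72 FPKM in siCirbp libraries, against 0.880 and 0.734 FPKM in mock 37 °C libraries.

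Of 18 matrix receptors, 2 rose at 32 °C (11.1%) and 9 fell (50%), with a median log2 fold change of -0.74. Dag1 (dystroglycan, a receptor for laminin and perlecan) had 24.5 and 26.8 FPKM at 32 °C, against 81.2 and 86.5 FPKM at 37 °C. Lrp1 (a large endocytic receptor of matrix ligands) had 18.6 and 17.3 FPKM at 32 °C, against 66.0 and 69.8 FPKM at 37 °C, and Ddr1, a collagen receptor, also fell. After siCirbp 1 passed (5.56%), Itga11 (a subunit of a collagen-binding integrin), at 0.952 and 0.436 FPKM in siCirbp libraries, against 3.66 and 3.70 FPKM in mock 37 °C libraries. Of 15 genes of TGF-beta signalling and its targets, 0 rose at 32 °C and 7 fell (46.7%), with a median log2 fold change of -0.66, and 0 passed limma's test after siCirbp (2 at an unadjusted p under 0.05). Tgfb3 had 6.66 and 7.25 FPKM at 32 °C, against 15.3 and 16.6 FPKM at 37 °C. Furin, a protease that matures TGF-beta, and Smad7, an inhibitor that the pathway induces, also fell. In these 4 lists, 0 genes passed limma's adjusted p after siRbm3 and 0 between siCirbp and siRbm3. At an unadjusted p under 0.05 there were 4, 5, 4 and 1 after siRbm3 and 8, 6, 6 and 0 between siCirbp and siRbm3, in the order of the lists above. All genes named from these lists were past limma's adjusted p of 0.05 in the comparison given.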

How the data were processed

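Polyadenylated RNA was read as 76 nt single ends on an Illumina GAII, per the labels' protocols. FPKM were used as deposited by the authors, for 28702 RefSeq transcripts. The submitters' processing notes name TopHat 1.1.2 and the mm9 build. The deposited tables have the layout and the name of Cufflinks output, whose version and handling of multiply mapped reads are not given in the sources used here. The coverage signal, as deposited by the authors, is read depth per base of a transcript, and its ratio to FPKM gave the depth of each library. The score of each PAR-CLIP site is the authors' deposited value, of unknown scale.

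Gene values are sums of transcript FPKM. Genes with a mean of at least 1 FPKM were tested on log2(FPKM + 1) with limma 3.58.1 in R 4.3.3 (trend and robust moderation, 4 group means, 4 residual degrees of freedom), two-sided, with Benjamini-Hochberg adjustment over all 10901 genes and a threshold of 0.05. The steps were tested on simulated data. Transcript shares were tested on the log2 ratio of a transcript to the gene's other transcripts, where a gene reached 5 FPKM and 2 or more of its transcripts held 10%. A PAR-CLIP site was given to a gene when it overlapped the span of its listed transcripts by at least 1 base, on its strand where known (28 of 40 members). Promoter windows were matched by symbol for 28 of 40 members. Tables were handled with Python 3.11.15 and pandas 2.3.3.

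The members, gene lists and tests were chosen with earlier results of these data known. All 40 members are accounted for; of the other lists, at most 3 genes per list and comparison with the smallest adjusted p are named. Alternatives were the pseudocount, the filter, median centring, quantile normalization, the highest transcript alone, a replicate block, fits of 2 groups, removal of the length trend and leaving out each library.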

Additional observations from a re-analysis of the deposited data

How the results depend on the processing

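Between 32 °C and 37 °C the count of 18 members (32.8% of all genes passed) went to 15 without a filter on FPKM (19.6%), 15 with a minimum of 5 FPKM (36.9%), 17 with quantile normalization (35.7%), 16 with the highest transcript alone (29.7%), 16 with the length trend removed (30.7%) and 25 with 2 groups in the fit (69.3%). Leaving out 1 library gave 5 to 20 members between temperatures, 0 to 9 after siCirbp, 0 to 2 after siRbm3, 0 to 7 between siCirbp and siRbm3 and 0 to 0 for transcript shares. In these fits without 1 library, the share of all genes passing rose where the count of members rose above the main fit. Where the count fell below it in these fits, that share also fell. The ranges thus do not show a change particular to the members. Between temperatures, the minimum of 5 FPKM and quantile normalization went otherwise, with fewer members and a higher share of all genes. After siCirbp the 3 members (3.39% of all genes) became 1 without a filter (0.335%) and 6 with quantile normalization (3.71%). They became 2 with the length trend removed (1.04%), 2 with the highest transcript alone (2%) and 0 with 2 groups in the fit (0.119%). The cause was not tested. With the replicate number as a block, 16 members passed between temperatures (29.2% of all genes) and 0 after siCirbp (0.0275%); same-numbered libraries deviated with correlations of -0.15 to 0.09, so the numbers are not shown to pair libraries. The Rbm3 site in Vcan is left out, giving 0 members, when sites under the median score are dropped. No named member reversed its direction where it had passed. Depth limits the 11 untested members, each under 42 reads per library, and 2 libraries a group limit every test.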
